A study of Mus musculus with 15 samples.

Results

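Among the 46679 genes of the deposited tables, the 10 genes described here encode 6 matrix metallopeptidases (Mmp2, Mmp3, Mmp9, Mmp12, Mmp13 and Mmp14) and the 4 tissue inhibitors of these enzymes (Timp1, Timp2, Timp3 and Timp4). They were taken by symbol. RNA was sequenced from naïve brain and from intracranial tumors of 4 mouse glioblastoma lines, with 3 mice in each of the 5 groups. Tumor hosts and naïve controls were both C57BL/6, with an age of 6 to 8 weeks listed for each group. For the hosts this is the age when they received the cells, whereas tumors were taken at the humane end point. The study reports that CT2A mice came to this stage soonest and Mut3 mice last. Line and time since implant therefore cannot be told apart, and the effect of age at harvest was not tested. CT2A (p53 wild type) and GL261 (K-ras and p53 mutant) were induced with methylcholanthrene. The 005 line carries activated H-ras and AKT on a p53+/- background. Mut3 was made by inactivating NF1 and p53. Every tumor line also carried a GFP and firefly luciferase reporter, which naïve brain did not. CT2A, GL261 and 005 mice received 100000 cells and Mut3 mice 500000, so the Mut3 line and its larger implant cannot be told apart. Each model is 1 line, and p-values measure the spread between the mice sampled.

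Matrix metallopeptidases are zinc-dependent enzymes that are made as inactive precursors and cut collagens, laminins, proteoglycans and cell surface proteins. The inhibitor proteins block their active sites. In the brain these enzymes act on the basement membrane of vessels and on the matrix between cells, and they have long been studied in the spread of glioma. MMP14 sits in the cell membrane, where it activates the MMP2 precursor in a complex that includes TIMP2.

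The libraries held 3105119 to 5161132 counts in naïve brain and 5380395 to 13130158 in the tumors, so 3 counts, the smallest number treated as detected, stood for 0.228 to 0.966 CPM (counts scaled to each library's total). Mitochondrial transcripts made up 15 to 24% of the counts in naïve brain. They made up 17.8% in 005 replicate 3 and 3.48 to 11.3% in the other 11 tumors. The part of this difference in the values below was not tested. Summed neuronal markers lay at 4035 to 6406 CPM in naïve brain and at 45.4 to 1804 CPM in 11 of the 12 tumors. The exception was 005 replicate 3, at 3653 CPM, whose profile was nearer to naïve brain (r = 0.91 across genes) than to its own group (r = 0.81). Its choroid plexus markers summed to 13729 CPM, against 450 to 3997 CPM in the other 14 samples. The fit was therefore repeated without it. Because these are pieces of tissue, fewer cells of a type and less RNA per cell cannot be told apart in any value below. On the deposited TPM scale, which is per length, the median log2 fold change of all genes against naïve brain was -0.77 for CT2A, -0.69 for GL261, -0.45 for 005 and -0.54 for Mut3, so levels per length are given only within a sample, and fold changes on the TPM scale, an alternative test, are read against these medians. Levels are CPM normalised by trimmed mean of M values (TMM) unless TPM is named.

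All 10 genes passed the filter on low counts, among 17481 genes tested, and 7 of them differed among the 5 groups (Mmp2, Mmp9, Mmp12, Mmp14, Timp1, Timp2 and Timp4, with adjusted p from 9.76e-05 to 0.0252), against 52.1% of all genes tested. Adjusted p was 0.161 for Mmp3, 0.0720 for Mmp13 and 0.0797 for Timp3. A gene is called differentially expressed (DE) below when its adjusted p was under 0.05 and its log2 fold change at least 1 in size. Against naïve brain, 4 members were upregulated and 1 downregulated in CT2A, where 19.0% and 20.2% of all genes tested were. In GL261, 4 were upregulated (all genes, 14.6%), and 0 were downregulated by edgeR and by DESeq2, with 1, Timp2, lower at an unadjusted p under 0.05 and DE by limma on the TPM scale (all genes, 7.77%). In 005, 5 were upregulated (all genes, 11.6%), and 0 were downregulated by edgeR, DESeq2 or limma, with 0 lower at an unadjusted p under 0.05 (all genes, 1.05%). The number of DE members in 005 was 2 by limma on the TPM scale and 2 with a replicate block. It was 0 when only the 005 and naïve samples were fitted. In Mut3, 3 were upregulated and 1 downregulated (all genes, 17.9% and 19.8%). The median log2 fold change of the 10 genes was 1.32 for CT2A, 1.39 for GL261, 2.07 for 005 and 0.71 for Mut3, beside -0.04, -0.08, 0.01 and 0.11 for all genes tested. These medians, and the upregulated counts in CT2A and GL261, include Mmp13. That gene had under 3 counts in each naïve brain and passed the filter through the tumors. The 4 comparisons share the same 3 naïve brains. Without 005 replicate 3, 5 members were upregulated in 005 and 1, Timp4, was downregulated (all genes, 17.6% and 18.1%). Those upregulated were Mmp2 (2.27 ± 0.62, adjusted p = 0.0112), Mmp9 (2.46, 0.00697), Mmp12 (3.62, 3.88e-04), Mmp14 (3.16, 0.00549) and Timp1 (3.66, 2.01e-06). Mmp3 was then at 0.00, Mmp13 at 2.88 (adjusted p = 0.0706), Timp2 at 0.39 and Timp3 at -0.74, none of them DE.

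**Figure D1:**
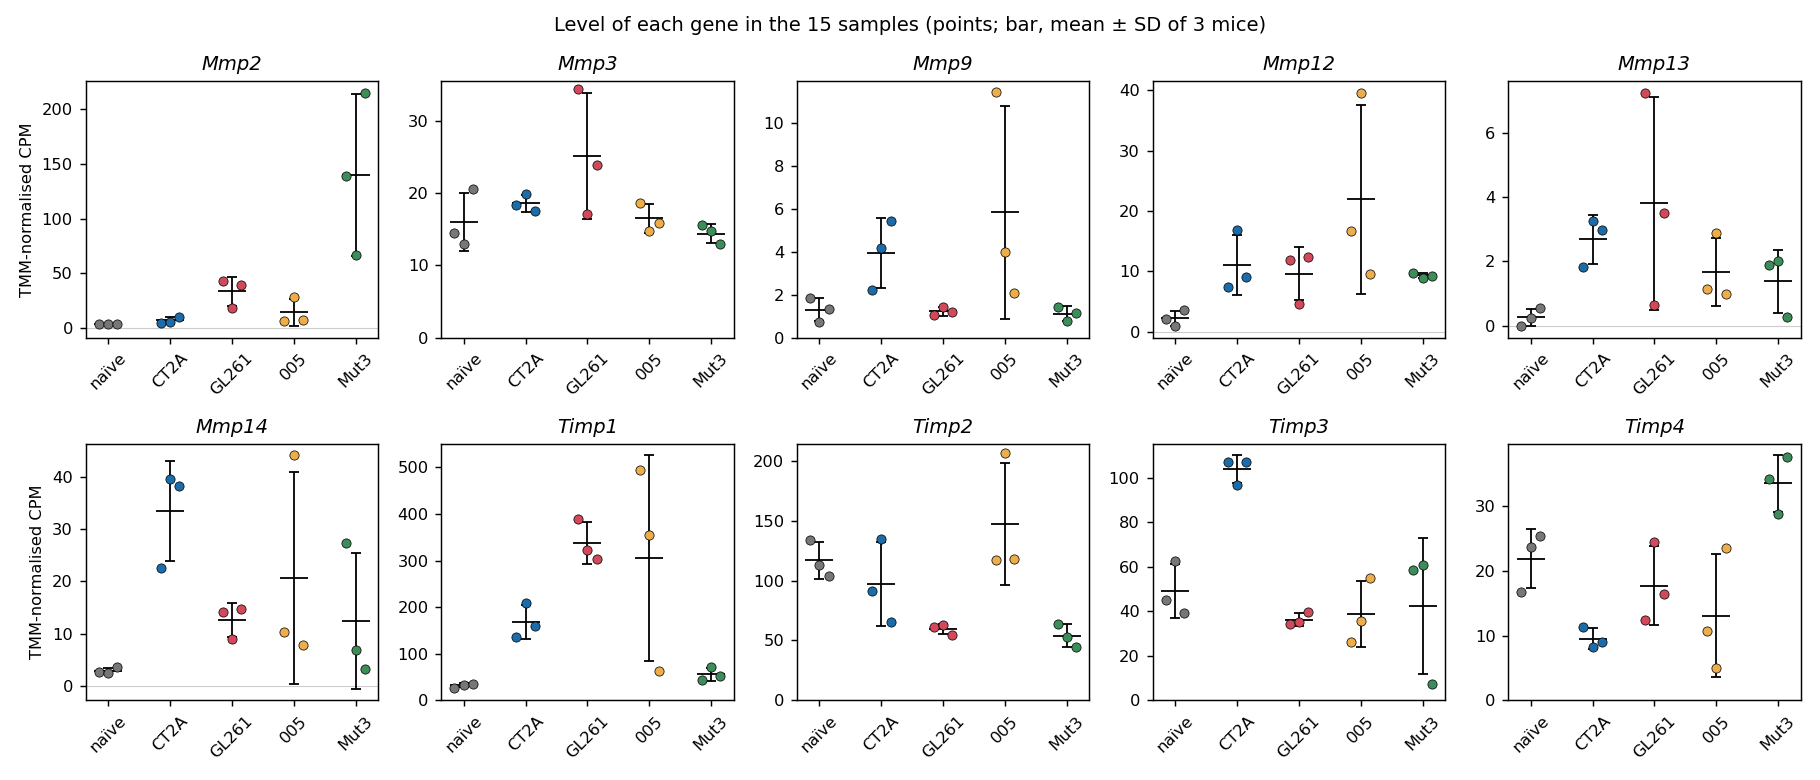
TMM-normalised CPM (vertical axis, linear, its range set per gene) of each of the 10 genes in naïve brain and the 4 tumors (horizontal axis), with 1 point per mouse and the mean ± SD of 3 mice in black. All 3 Mut3 tumors lie above every other sample for Mmp2, and Timp1 lies above naïve brain in all 12 tumors.

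Mmp2, which encodes gelatinase A, an enzyme of type IV collagen and denatured collagen, had the widest range of the 6 peptidases. It lies on chr8:92827291-92853420 (GRCm38). It was at 3.67, 3.49 and 3.24 CPM in naïve brain and at 139, 67.1 and 215 CPM in the 3 Mut3 tumors. In GL261 it was at 43.1, 17.9 and 39.1 CPM. The group ranges of Mut3, GL261 and naïve brain did not overlap. Against naïve brain the log2 fold change was 5.33 ± 0.68 (SE, n = 3) in Mut3 (adjusted p = 1.90e-04, edgeR), a 40.2-fold higher level. It was 3.26 ± 0.63 in GL261 (adjusted p = 0.00304). Both calls held in all 23 alternative settings. In CT2A the levels were 4.88, 5.74 and 10.3 CPM, all above naïve brain, but the difference was not DE (1.01, 95% interval -0.30 to 2.32, adjusted p = 0.198). On the log2(TPM + 0.1) scale it was -0.04, which is 0.73 above the median of all genes. In 005 the levels were 6.70, 28.7 and 7.33 CPM. The log2 fold change in 005 was 2.03 ± 0.61 (adjusted p = 0.0432), and replicate 2 decided this call, since without it the value was 1.02 (adjusted p = 0.307). It was also lost without any 1 of the 3 naïve brains (adjusted p = 0.116, 0.0843 and 0.113), CT2A replicate 1 (0.0504) or GL261 replicate 3 (0.0662), and the lowest and highest over all settings were 0.0111 and 0.307. Fitting only the 005 and naïve samples ended this call as well. Of 8 pericyte and fibroblast markers, 4 were upregulated in CT2A, 2 in 005 and 2 in Mut3, where 1 was downregulated. Those upregulated in Mut3 were Cspg4 (3.67) and Col6a3 (3.93), and Dcn was downregulated (-2.06). Pdgfrb (0.33), Rgs5 (0.00), Kcnj8 (0.92), Lum (0.31) and Pdgfra (0.89) were not DE there. The sum of the 8 markers was 103 to 163 CPM in naïve brain, 174 to 255 in CT2A, 102 to 117 in GL261, 98.5 to 213 in 005 and 155 to 284 in Mut3. The part of these cells in Mmp2 was not tested.

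Mmp14, which encodes the membrane-bound peptidase MT1-MMP, followed another order. On chr14:54431612-54445364, it was at 2.65, 2.49 and 3.52 CPM in naïve brain and at 22.5, 39.6 and 38.4 CPM in CT2A, its highest group mean. The log2 fold change in CT2A was 3.53 ± 0.80 (adjusted p = 0.00442), an 11.6-fold higher level that remained DE in all 23 settings. GL261 samples, at 14.1, 8.89 and 14.7 CPM, also lay above every naïve brain, with a log2 fold change of 2.12 ± 0.78 that missed the threshold (adjusted p = 0.0598) but was DE without 005 replicate 3 (2.04, adjusted p = 0.0417). In 005 and Mut3, 1 tumor in each stood far above the other 2. The 005 tumors were at 10.2, 44.2 and 7.83 CPM, with a log2 fold change of 2.84 ± 0.79 (adjusted p = 0.0289). Without 005 replicate 2 it was 1.65 (adjusted p = 0.206). The Mut3 tumors were at 27.3, 6.79 and 3.17 CPM, the last within the naïve range. Their log2 fold change of 2.10 ± 0.77 (adjusted p = 0.0422) fell to 0.79 without Mut3 replicate 1 (adjusted p = 0.384). Leaving out any 1 naïve brain also ended the call in 005 (adjusted p = 0.102, 0.0695 and 0.0735) and in Mut3 (0.109, 0.0863 and 0.0774). The 005 call was lost as well when only the 005 and naïve samples were fitted. The Mut3 call was lost, at adjusted p of 0.0502 to 0.0527, without CT2A replicate 2 or 3 or any 1 GL261 tumor. Mmp2 and Mmp14, whose products act together, had their highest means in different lines, Mut3 and CT2A, but Mmp14 was DE between no pair of lines (adjusted p from 0.199 to 0.992).

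Mmp12, Mmp13 and Mmp3 lie in a cluster of 10 Mmp genes that spans 427072 bp of chromosome 9, from Mmp13 to Mmp7. Mmp13 is at chr9:7272514-7283331, Mmp12 at chr9:7344381-7369499 and Mmp3 at chr9:7445822-7455975. RefSeq (GRCm38.p6) windows were at hand for 8 of the 10 genes. The 250 bases before the start are printed for these 3 neighbors, of which Mmp12 and Mmp13 were DE in some tumors and Mmp3 in none, and for Timp1, which had the largest fold changes among the inhibitors. Letters in capitals mark TGANTCA, which AP-1 (Fos and Jun proteins) binds, TATAAA, or the GC box GGGCGG, on either strand. The windows lie on the plus strand, at chr9:7272264-7272513 (Mmp13), chr9:7347124-7347373 (Mmp12, a start inside the gene), chr9:7445572-7445821 (Mmp3) and chrX:20869916-20870165 (Timp1).
Mmp13: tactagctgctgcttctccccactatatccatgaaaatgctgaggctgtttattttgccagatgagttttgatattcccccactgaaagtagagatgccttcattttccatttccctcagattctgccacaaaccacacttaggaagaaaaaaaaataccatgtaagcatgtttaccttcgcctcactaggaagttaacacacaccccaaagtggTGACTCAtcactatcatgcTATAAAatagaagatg
Mmp12: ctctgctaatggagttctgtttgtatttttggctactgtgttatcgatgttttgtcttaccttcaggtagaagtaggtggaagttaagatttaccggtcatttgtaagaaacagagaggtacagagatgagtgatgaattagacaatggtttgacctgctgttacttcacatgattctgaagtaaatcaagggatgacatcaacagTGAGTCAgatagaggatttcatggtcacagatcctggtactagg
Mmp3: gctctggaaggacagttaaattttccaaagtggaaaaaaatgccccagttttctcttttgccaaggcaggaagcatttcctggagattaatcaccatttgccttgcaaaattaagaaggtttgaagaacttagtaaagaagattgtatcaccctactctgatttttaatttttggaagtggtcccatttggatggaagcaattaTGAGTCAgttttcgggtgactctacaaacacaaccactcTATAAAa
Timp1: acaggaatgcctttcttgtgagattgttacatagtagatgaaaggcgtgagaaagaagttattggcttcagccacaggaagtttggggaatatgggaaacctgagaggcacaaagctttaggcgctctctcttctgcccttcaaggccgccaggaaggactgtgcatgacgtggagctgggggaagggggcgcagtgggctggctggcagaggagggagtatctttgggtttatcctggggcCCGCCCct
TGANTCA begins at position -35 from the start of Mmp13, -44 of Mmp12 and -46 of Mmp3, and it was found in these 3 of the 8 members with a window. It occurred in 6.75% of all 32851 windows of this length. At the other Mmp12 start, 250 bases held none of the 3 motifs. TATAAA was found in Mmp13 and Mmp3 and in 12.4% of all windows. The GC box was found in 4 members (Mmp14, Timp1, Timp2 and Timp3) and in 32.7% of all windows. A match is a description of letters and not a binding site.

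Mmp12, which encodes macrophage elastase, was the only 1 of the 10 genes upregulated in all 4 tumors in the fit of all libraries. Without 005 replicate 3, Mmp14 was upregulated in all 4 as well (3.50, 2.04, 3.16 and 2.08 in CT2A, GL261, 005 and Mut3). It was at 2.04, 0.996 and 3.52 CPM in naïve brain, and every tumor lay above that range. The highest group mean was that of 005, at 16.7, 39.6 and 9.54 CPM, with a log2 fold change of 3.33 ± 0.62 (adjusted p = 0.00375). CT2A tumors were at 7.45, 16.8 and 9.04 CPM (2.34 ± 0.61, adjusted p = 0.00859) and GL261 tumors at 11.8, 4.53 and 12.4 CPM (2.13 ± 0.61, adjusted p = 0.0234). Mut3 tumors were at 9.73, 8.93 and 9.23 CPM (2.09 ± 0.61, adjusted p = 0.0140). Mmp12 was DE between no pair of tumor lines (adjusted p from 0.122 to 0.970). The GL261 call was lost without GL261 replicate 1 or 3 (adjusted p = 0.0613 and 0.0821) and without naïve brain replicate 1 or 2 (0.0737 and 0.0690), and those of CT2A, GL261 and Mut3 were lost on the TPM scale (0.0547 to 0.187 over these 3 tumors and both pseudocounts). The 005 call was lost when only the 005 and naïve samples were fitted (3.40, adjusted p = 0.0529). Of 10 macrophage and microglia markers, 6 were upregulated in CT2A, 6 in GL261 and 7 in 005, and 1 was downregulated in CT2A (P2ry12, a microglial receptor, -2.41) and 4 in Mut3 (Csf1r, Itgam, Tmem119 and P2ry12). Without 005 replicate 3, 7 were upregulated and 1 downregulated in each of CT2A, GL261 and 005. Their summed level was 152 to 205 CPM in naïve brain, 307 to 416 in CT2A, 663 to 1186 in GL261, 452 to 1166 in 005 and 67.0 to 172 in Mut3. In Mut3, Mmp12 was higher than in naïve brain while the summed markers lay below its range in 2 of 3 tumors and within it in the other. The part of these cells in Mmp12 was not tested. Mmp12 shares 157 bp of exon with Mmp1b on the opposite strand, and Mmp1b had 0 counts in every sample.

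Mmp13, which encodes collagenase-3, was under the limit of detection (3 counts) in every naïve brain, with 0, 1 and 2 counts. CT2A tumors had 15, 21 and 23 counts (1.83, 3.26 and 2.97 CPM), and GL261 tumors 35, 4 and 29 (7.25, 0.647 and 3.52 CPM). The log2 fold change was 3.36 ± 1.13 in CT2A (adjusted p = 0.0275) and 3.85 ± 1.13 in GL261 (adjusted p = 0.0256). All 3 naïve brains were under 3 counts, so the gene passed the filter through the tumors and its fitted fold changes depend on the small count the model adds. Summed counts per total gave 9.94 times the naïve level in CT2A (95% exact interval 3.24 to 49.6) and 14.6 times in GL261 (4.80 to 72.7), where the interval covers counting error only. The CT2A call was lost without CT2A replicate 2 or 3 (adjusted p = 0.0588 and 0.0620) or naïve brain replicate 1 or 2 (0.0931 and 0.0605), and the GL261 call without GL261 replicate 1 or 3 (0.0966 and 0.0550) or the same naïve brains (0.0869 and 0.0642). In 005, with 11, 24 and 14 counts, and in Mut3, with 17, 16 and 3, the gene was not DE (2.67 and 2.41, adjusted p = 0.126 and 0.105).

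Mmp3, which encodes stromelysin-1, an enzyme that also activates other precursors, was the most even of the 6. Naïve brains were at 14.5, 13.0 and 20.6 CPM, and group means in the tumors ran from 14.4 ± 1.29 CPM in Mut3 to 25.1 ± 8.70 in GL261 (SD, n = 3). No tumor group separated from naïve brain. The log2 fold change was 0.22 in CT2A (95% interval -0.42 to 0.86), 0.65 in GL261 (0.01 to 1.30, adjusted p = 0.122), 0.04 in 005 (-0.60 to 0.69) and -0.15 in Mut3 (-0.79 to 0.50). Relative to the median of all genes on the log2(TPM + 0.1) scale these were 0.06, 0.50, -0.07 and -0.37.

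Mmp9, which encodes gelatinase B, an enzyme that neutrophils store, was low throughout. It lies on chr2:164940780-164955850 and was at 1.84, 0.747 and 1.35 CPM in naïve brain (9, 3 and 5 counts). The 005 tumors were at 11.4, 3.98 and 2.06 CPM and the CT2A tumors at 2.20, 4.19 and 5.43 CPM, both groups above every naïve brain. In 005 the log2 fold change was 2.12 ± 0.66 (adjusted p = 0.0477), DE in 3 of 22 alternative settings only. Without 005 replicate 1 it was 1.18 (adjusted p = 0.315), and without any 1 of the other samples except 005 replicate 3 adjusted p was 0.0513 to 0.111. Without 005 replicate 3 it was 2.46 (adjusted p = 0.00697). In CT2A it was 1.56 ± 0.66 (adjusted p = 0.0698), and DE without 005 replicate 3 (1.52, adjusted p = 0.0463). GL261 and Mut3 tumors overlapped naïve brain (-0.09 and -0.24, adjusted p = 0.932 and 0.803). Of the 5 neutrophil markers tested, 3 (S100a8, Csf3r and Retnlg) were upregulated in 005, 2 in GL261 and 1 in Mut3, while Elane was at 0 counts in all groups, Mpo in naïve brain and GL261, and Ly6g in Mut3. Summed over 9 markers, the level was 14.2 to 20.0 CPM in naïve brain, 37.2 to 76.9 in 005, 25.8 to 39.1 in CT2A, 21.3 to 26.2 in GL261 and 27.9 to 55.0 in Mut3. The part of these cells in Mmp9 was not tested.

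**Figure D2:**
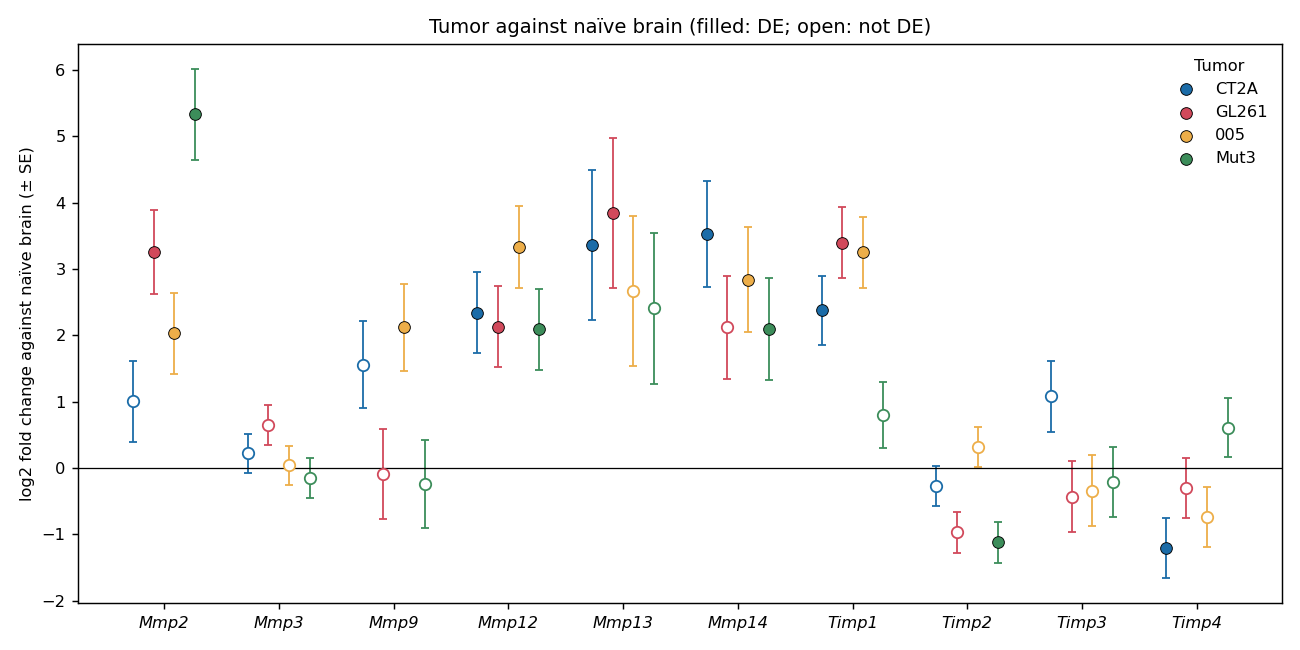
Log2 fold change of each gene in the 4 tumors against naïve brain (vertical axis; bars, SE of the edgeR fit on 3 mice per group), filled where DE and open where not. Mmp12 is filled in all 4 tumors, Mmp2 is highest in Mut3 at 5.33, and Mut3 is the only tumor in which Timp1 is open.

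Timp1, the secreted inhibitor that also acts as a growth factor, was upregulated in 3 of the 4 tumors. It lies on chrX:20870166-20874735, inside an intron of Syn1 on the opposite strand with 0 bp of shared exon. Naïve brains were at 27.5, 32.9 and 36.0 CPM. GL261 tumors reached 389, 323 and 303 CPM, and CT2A tumors 136, 208 and 159 CPM, with no overlap between these groups. The difference between the 2 lines was not DE (CT2A lower by 1.01 on the log2 scale, -1.01 with a 95% interval of -2.07 to 0.04, adjusted p = 0.228). Without 005 replicate 3 it was -0.97 ± 0.25 (adjusted p = 0.0209), short of the fold minimum only. Against naïve brain the log2 fold change was 3.40 ± 0.54 in GL261 (adjusted p = 8.99e-04) and 2.38 ± 0.52 in CT2A (adjusted p = 0.00362), and both calls held in all 23 settings. The 005 tumors spread from 62.9 CPM in replicate 3 to 495 in replicate 1, with replicate 2 at 356. Their log2 fold change was 3.25 ± 0.54 (adjusted p = 0.00210) and 3.66 ± 0.29 without replicate 3 (adjusted p = 2.01e-06). It was lost when only the 005 and naïve samples were fitted (adjusted p = 0.0559, within a range of 8.88e-08 to 0.0559 over all settings). Mut3 tumors, at 44.3, 70.7 and 52.9 CPM, lay above every naïve brain, but the difference of 0.80 was not DE (95% interval -0.26 to 1.87, adjusted p = 0.213). Without 005 replicate 3 the Mut3 difference was 0.79 ± 0.26 (adjusted p = 0.0222), short of the fold minimum only. With all libraries, on the log2(TPM + 0.1) scale it was -0.03, which is 0.51 above the median of all genes.

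Timp2, which both inhibits MMP2 and helps MMP14 activate it, was downregulated in Mut3 alone in the fit of all libraries. It lies on chr11:118301069-118355740 (minus strand) and was at 134, 113 and 104 CPM in naïve brain. Mut3 tumors, at 64.1, 53.1 and 44.9 CPM, and GL261 tumors, at 61.1, 63.2 and 54.8 CPM, all lay below that range. In Mut3 the log2 fold change was -1.12 ± 0.31 (adjusted p = 0.0106), lost only without naïve brain replicate 2, where the adjusted p was 0.0397 and the change -0.97. In GL261 it was -0.97 ± 0.31 (adjusted p = 0.0351), short of the fold minimum, and without 005 replicate 3 it was DE (-1.05, adjusted p = 0.0139). CT2A tumors, at 91.1, 135 and 65.8 CPM, overlapped naïve brain (-0.27, 95% interval -0.92 to 0.38). So did the 005 tumors, at 117, 206 and 118 CPM (0.32, -0.33 to 0.97), which on the log2(TPM + 0.1) scale were 0.13 above the median of all genes.

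Timp3, the inhibitor that binds to the matrix and also blocks ADAM17, was not DE in any tumor. It lies on chr10:86300372-86349506. Naïve brains were at 45.3, 62.8 and 39.2 CPM and CT2A tumors at 107, 96.7 and 107 CPM, with no overlap, but the log2 fold change of 1.08 ± 0.53 gave an adjusted p of 0.116. GL261 (34.2 to 39.7 CPM) and 005 (26.2 to 55.0 CPM) overlapped naïve brain, with differences of -0.43 and -0.34. In Mut3 replicate 3 was at 7.30 CPM while the other 2 were at 58.7 and 61.0, and the difference of -0.21 turned to 0.27 without replicate 3. Timp3 shares 1733 bp of exon with Syn3 on the opposite strand, and since it is not stated whether counting used the strand, its level is uncertain by what Syn3 contributes. Syn3 itself was at 4.63 ± 1.63 CPM in naïve brain and 1.27 to 3.91 on average in the tumors, and was not DE in any of them.

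Timp4, an inhibitor of narrow distribution found in brain and heart, had its highest mean in Mut3 and its lowest in CT2A. It lies on chr6:115241892-115252205 (minus strand), inside Syn2, with which it shares 90 bp of exon on the opposite strand. Naïve brains were at 16.7, 23.7 and 25.4 CPM, CT2A tumors at 11.4, 8.23 and 9.04, and Mut3 tumors at 34.2, 28.8 and 37.6 CPM. Neither tumor overlapped naïve brain, in opposite directions. In CT2A the log2 fold change was -1.20 ± 0.45 (adjusted p = 0.0467), a call kept in 7 of 23 settings. It was lost without any 1 of 13 of the 15 samples, at adjusted p up to 0.170, and kept without 005 replicate 2 or 3. In Mut3 it was 0.61 (95% interval -0.34 to 1.56, adjusted p = 0.287), and on the log2(TPM + 0.1) scale it was 0.37 above the median of all genes. In 005 the values were 10.7 and 4.95 CPM in replicates 1 and 2 and 23.5 CPM in replicate 3. Without replicate 3 Timp4 was downregulated in 005 (-1.55 ± 0.40, adjusted p = 0.00829), against -0.74 with it (adjusted p = 0.260). Neuronal markers fell with it in CT2A (8 of 8 downregulated) and Syn2 by 3.09 on the log2 scale (adjusted p = 0.0126). Astrocyte markers fell in CT2A too (5 of 8 downregulated), with a sum of 332 to 624 CPM against 1514 to 1936 in naïve brain. In Mut3 8 of 8 neuronal markers and 4 of 8 astrocyte markers were also downregulated and Syn2 fell by 2.91, beside the higher Timp4 values, while 1 astrocyte marker, Gfap, was upregulated (2.57, adjusted p = 0.00397). With 005 replicate 3 left out, 8 of 8 neuronal markers were downregulated in 005 and 7 of 8 in GL261 as well. The part of these cells in Timp4 was not tested.

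Per length, Timp1 was the most abundant inhibitor in every sample. In naïve brain it made up 52.0% ± 5.76 of the summed TPM of the 4 inhibitors (SD, n = 3) and Timp2 37.9% ± 6.05. In GL261 the share of Timp1 was 95.3% ± 0.642, in CT2A 85.0% ± 2.32, in 005 83.8% ± 14.4 and in Mut3 75.8% ± 6.88. No tumor sample overlapped the naïve range of 46.1 to 57.7%, and the lowest was 005 replicate 3 at 67.4%. Timp4 held 3.23% ± 0.606 in naïve brain and 4.32% ± 1.20 in Mut3, against 0.464% ± 0.164 in CT2A and 0.470% ± 0.187 in GL261. Among the 6 peptidases, Mmp3 held the largest share in naïve brain (60.4% ± 3.71), Mmp14 in CT2A (47.7% ± 3.45) and Mmp2 in Mut3 (74.4% ± 12.2), while in GL261 Mmp2 (36.6% ± 3.83) and Mmp3 (32.3% ± 4.01) were close. The peptidases together made up 10.5% ± 1.96 of the summed TPM of all 10 genes in naïve brain and 37.1% ± 13.7 in Mut3, where the 3 tumors were at 42.8, 21.5 and 47.0%. The other tumor groups averaged 5.69 to 9.86%. These shares are descriptions without a test, and RNA shares do not give the balance of the proteins.

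**Figure D3:**
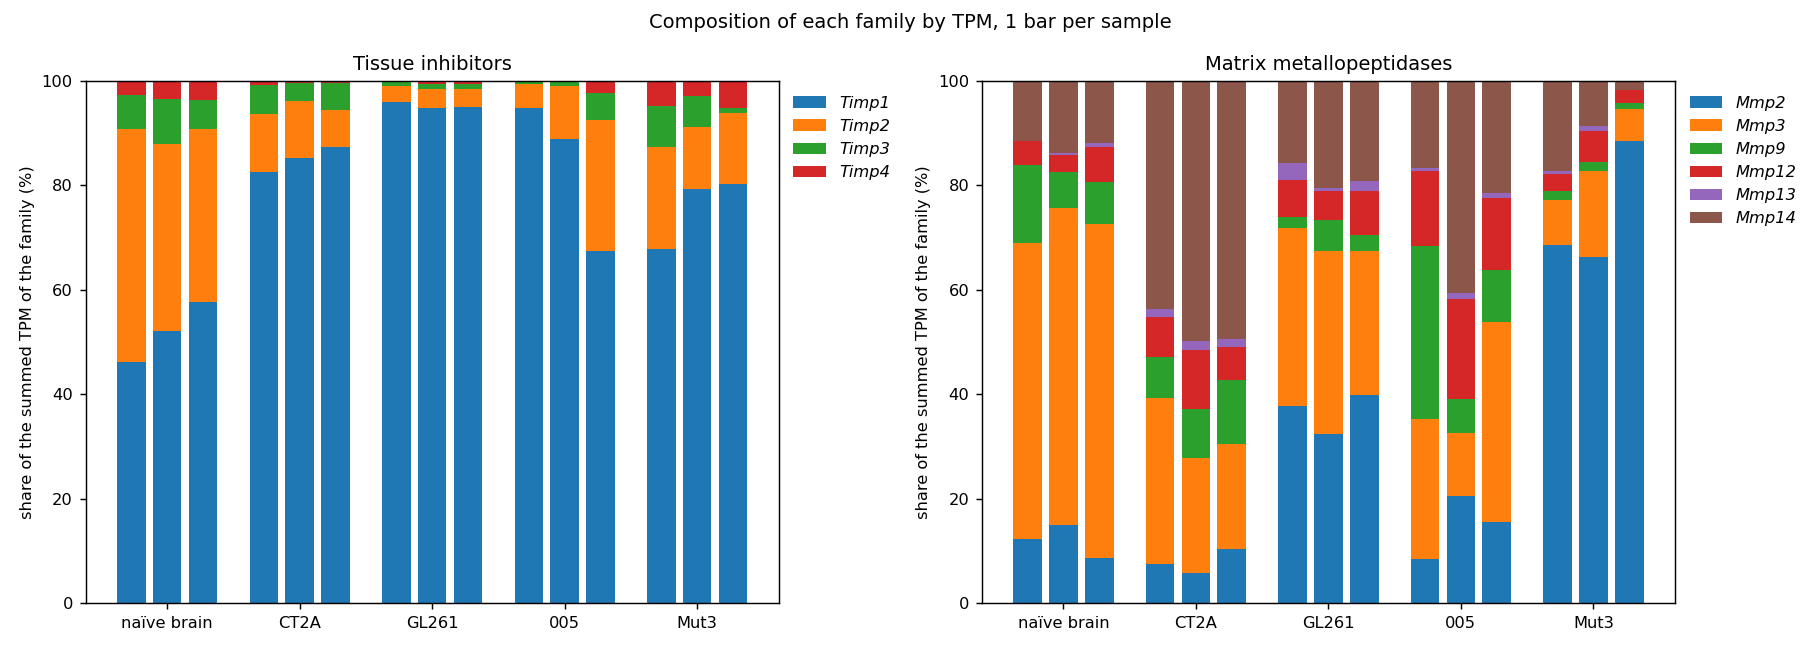
Share of each gene in the summed TPM of its family (vertical axis, percent), with 1 stacked bar for each of the 15 samples. Timp1 fills 94.8 to 96.0% of the inhibitor bars in GL261, and Mmp2 fills 66.2 to 88.5% of the peptidase bars in Mut3.

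The 4 lines were then set against each other. CT2A and GL261 differed in 1 member (all genes, 7.77%), Mmp2, lower in CT2A by 2.25 on the log2 scale (-2.25 ± 0.59, adjusted p = 0.0296). This call was lost without any 1 CT2A tumor or without GL261 replicate 1 or 3 (adjusted p = 0.0562 to 0.120). Between CT2A and 005, 0 members were DE by edgeR (all genes, 4.11%), by DESeq2 and by limma. At an unadjusted p under 0.05 there was 1, Timp3 (1.42, adjusted p = 0.131), and without 005 replicate 3 Timp1 was lower in CT2A (-1.31, adjusted p = 0.0162). CT2A and Mut3 differed in 2 (all genes, 12.8%), Mmp2 (-4.32 ± 0.63, adjusted p = 6.11e-04) and Timp4 (-1.81 ± 0.46, adjusted p = 0.0175), both lower in CT2A. The Timp4 call was lost without CT2A replicate 2 or 3 or Mut3 replicate 1 or 3 (adjusted p = 0.0570 to 0.0859). Timp1 was higher in CT2A than in Mut3 by 1.58 ± 0.50, with an adjusted p of 0.0507. Without 005 replicate 3 it was DE (1.56, adjusted p = 8.33e-04), as was Mmp9, higher in CT2A (1.77, adjusted p = 0.0401).

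GL261 and 005 differed in 1 member (all genes, 2.62%), Timp2, lower in GL261 (-1.30 ± 0.31, adjusted p = 0.0372). This call was lost without any 1 of 11 of the 15 samples (adjusted p up to 0.163), and without 005 replicate 3 Mmp9 was lower in GL261 as well (-2.63, adjusted p = 0.0210). The Timp2 call was also lost when only the GL261 and 005 samples were fitted. GL261 and Mut3 differed in 2 (all genes, 17.2%). Mmp2 was lower in GL261 (-2.07 ± 0.57, adjusted p = 0.0238) and Timp1 higher (2.59 ± 0.52, adjusted p = 0.00496). The Mmp2 call was lost without any 1 GL261 tumor or without Mut3 replicate 1 or 3 (adjusted p = 0.0509 to 0.113). Against Mut3, 005 differed in 5 members (all genes, 19.8%). Timp1 (2.44 ± 0.52, adjusted p = 0.00625), Mmp9 (2.36 ± 0.64, 0.0198) and Timp2 (1.44 ± 0.31, 0.00692) were higher in 005, and Mmp2 (-3.30 ± 0.60, 0.00294) and Timp4 (-1.35 ± 0.45, 0.0450) were lower. The Mmp9 call was lost without 005 replicate 1 (1.42, adjusted p = 0.118) or any 1 Mut3 tumor (0.0505 to 0.0716), and the Timp1 call when only the 005 and Mut3 samples were fitted (0.0641). The Timp4 call held in 4 of 23 settings and was lost without any 1 of 13 of the 15 samples (adjusted p up to 0.131). All 5 calls held without 005 replicate 3, with Timp4 at -2.15 ± 0.41 (adjusted p = 0.00292), Mmp2 at -3.05, Timp1 at 2.87, Mmp9 at 2.71 and Timp2 at 1.52. In the order of Timp1 means, GL261 and 005 were not told apart (0.15, 95% interval -0.89 to 1.20), nor were 005 and CT2A except without 005 replicate 3, while GL261 and 005 each exceeded Mut3. In the order of Mmp2, Mut3 exceeded each other line and GL261 exceeded CT2A, while GL261 and 005 (1.23, 0.03 to 2.43, adjusted p = 0.326) and 005 and CT2A (1.02 higher in 005, adjusted p = 0.276) did not pass.

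**Figure D4:**
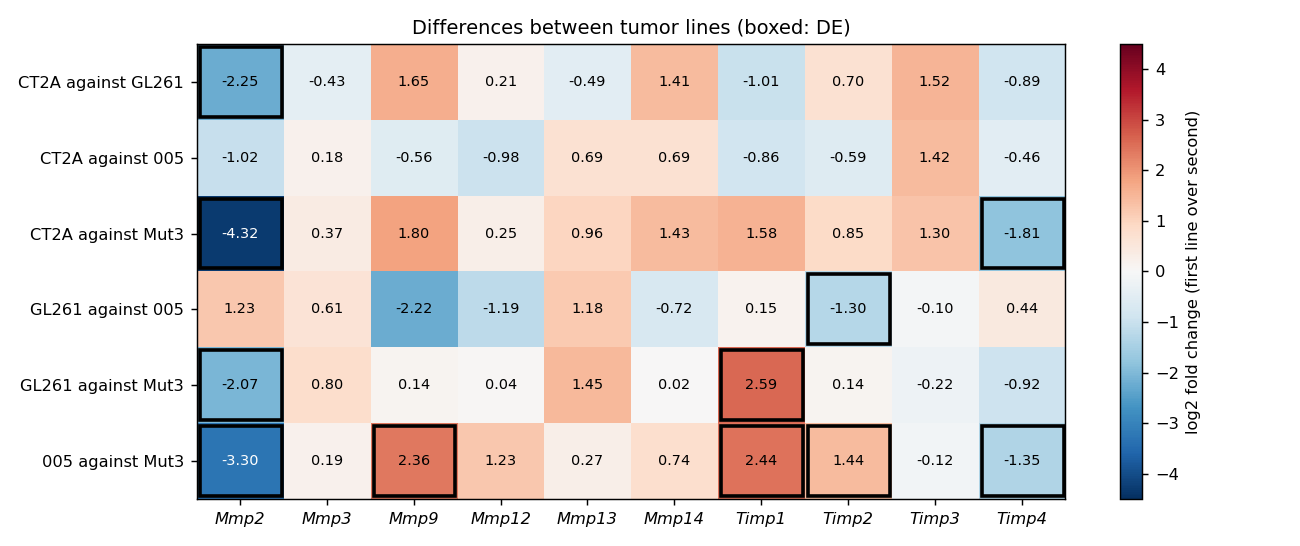
Log2 fold changes of the 10 genes (columns) in the 6 comparisons between tumor lines (rows), as printed in each cell and by color, first-named line over second, with DE cells boxed. The Mmp2 column is negative in every comparison of a line with Mut3, from -2.07 to -4.32, and the CT2A against 005 row holds no box.

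The lines were also compared as the study pairs them, GL261 and 005 as immunologically active and CT2A and Mut3 as inert. The study drew this pairing from its RNA sequencing of these same tumors. The marker counts below are therefore not independent of the pairing, and the p-values do not allow for how it was chosen. Between these pairs of lines 1 member was DE (all genes, 16.9%), Timp1, higher in GL261 and 005 by 1.73 ± 0.36 (3.31-fold, adjusted p = 0.00562), in all 23 settings. The 6 active tumors were at 62.9 to 495 CPM and the 6 inert tumors at 44.3 to 208, which overlap through 005 replicate 3. In the same comparison 8 of 10 macrophage and microglia markers (Cd14 by 2.38 and Aif1 by 2.05, for example) and 8 of 8 neuronal markers (2.24 to 2.66) were higher in GL261 and 005. These were 9 of 10 and 6 of 8 without 005 replicate 3, and Timp1 was at 1.92 ± 0.19 (adjusted p = 3.83e-05). The part of these cells in Timp1 was not tested. Between the chemically induced lines (CT2A and GL261) and the genetically made lines (005 and Mut3), 1 member was DE (all genes, 5.06%), Mmp2, lower in the former by 1.54 on the log2 scale (-1.54 ± 0.40, adjusted p = 0.0359). This call was lost without CT2A replicate 1 or 2, any 1 GL261 tumor, 005 replicate 2, or Mut3 replicate 1 or 3 (adjusted p = 0.0586 to 0.108). It was also lost with the replicate block and when only the tumor samples were fitted. The 005 tumors (6.70 to 28.7 CPM) overlapped both CT2A and GL261.

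Genes that act with these proteins were counted from lists. The counts here and in the next 2 paragraphs are read beside the shares of all genes tested against naïve brain. For CT2A, 19.0% of all genes were upregulated and 20.2% downregulated. These shares were 14.6% and 7.77% for GL261, and 11.6% and 1.05% for 005. Mut3 had 17.9% and 19.8%. Whether any list differed from these shares was not tested. Plasmin, made from plasminogen, activates several of the peptidases. Of 7 genes of plasminogen activation tested, 3 were upregulated in CT2A, 2 in GL261 and 2 in 005, while 2 were downregulated in CT2A and 1 in Mut3. The latter was Serpini1 (-2.54 and -4.65), a protease inhibitor of neurons, with Serpine2 in CT2A (-1.62). Plaur, the urokinase receptor, rose by 4.51 ± 0.73 in CT2A, 3.26 ± 0.71 in GL261 and 4.48 ± 0.73 in 005 (adjusted p = 7.49e-04, 0.00629 and 0.00202), and was at 1.02 in Mut3 (adjusted p = 0.274). Plau, urokinase itself, rose by 3.41 in CT2A and 2.75 in 005, with 1.48 in GL261 (adjusted p = 0.0764) and -0.65 in Mut3 (0.408). Among 14 tested activators, inhibitors and docking partners, upregulated members numbered 6 in CT2A, 4 in each of GL261 and 005 and 1 in Mut3, and 2 were downregulated in CT2A and 2 in Mut3. Those downregulated were Spock1 (-2.87 and -4.72) and Spock2 (-3.45 and -3.80), proteoglycans of the brain matrix. Thbs1 and Thbs2, thrombospondins, rose by 4.64 and 4.65 in CT2A and by 2.46 and 3.17 in 005. A2m, a broad protease inhibitor of blood, rose by 3.30 in CT2A, 4.60 in GL261 and 3.34 in 005. Cd44, the hyaluronan receptor to which MMP9 and MMP14 dock, was upregulated in all 4 tumors, by 4.88, 3.21, 4.24 and 2.21 in the same order. Lcn2, whose human product binds MMP9, was upregulated in GL261 (2.84 ± 0.31, adjusted p = 1.00e-04) and CT2A (1.11). Reck, a membrane inhibitor (-1.20 to 0.01), and Bsg, an inducer (-0.86 to 0.01), were not DE. The median log2 fold change of these 14 genes was 0.52, 0.01, 0.22 and -0.15 in CT2A, GL261, 005 and Mut3, and that of the 7 plasminogen genes 0.70, 0.69, 0.27 and -0.14.

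Of the 17 other Mmp genes, 6 were tested, and 2, 1, 1 and 1 were upregulated in CT2A, GL261, 005 and Mut3. They were Mmp10 (3.14) and Mmp11 (3.23) in CT2A and Mmp19 in GL261 (2.84), 005 (3.56) and Mut3 (2.76), while Mmp17 was downregulated in CT2A (-3.45) and Mut3 (-3.72) and Mmp16 in 005 (-1.84). Of 8 cysteine cathepsins, lysosomal enzymes abundant in phagocytes, 5, 6, 6 and 1 were upregulated. Ctsc rose by 3.80 in CT2A, 3.91 in GL261 and 4.72 in 005, and Ctsh was the member upregulated in Mut3 (1.45). Of 9 ADAM genes, 2, 2, 3 and 2 were upregulated, Adam9 in each tumor (1.29 to 1.77), and Adam22 and Adam23, both known from neurons, were downregulated in CT2A (-2.81 and -2.65) and Mut3 (-2.89 and -3.46). Of 13 ADAMTS genes tested, 5, 2, 1 and 3 were upregulated, among them Adamts14 in CT2A, GL261 and 005 (4.29, 3.76 and 4.93), while Adamts2 was downregulated in CT2A (-2.29) and Mut3 (-3.31). In the same order of tumors, median log2 fold changes were 0.70, 0.87, 1.04 and 0.60 for other Mmp genes, 1.74, 1.81, 1.75 and 0.07 for cathepsins, -0.03, -0.05, 0.67 and 0.98 for ADAM genes and 0.60, 0.75, 0.95 and 1.18 for ADAMTS genes. Without 005 replicate 3, the upregulated counts in 005 became 3 for other Mmp genes, 6 for cathepsins, 3 for ADAM and 3 for ADAMTS genes, with 7 other Mmp genes and 14 ADAMTS genes tested. Downregulated in 005 were then 2 other Mmp genes, 2 ADAM genes, 2 of the 14 activators, inhibitors and docking partners, 1 plasminogen gene, 2 AP-1 and ETS factors and 1 matrix protein. Plasminogen genes upregulated in 005 were then 3. In GL261 the same fit had 2 other Mmp genes, 3 plasminogen genes and 5 activators, inhibitors and docking partners upregulated. Downregulated there were 1 plasminogen gene and 2 activators, inhibitors and docking partners. In Mut3, 2 activators, inhibitors and docking partners, 3 ADAM genes and 4 ADAMTS genes were upregulated. Of all genes tested without 005 replicate 3, 17.6% were upregulated and 18.1% downregulated for 005. GL261 had 15.3% and 14.9%, Mut3 18.6% and 20.9%, and CT2A 18.8% and 22.2%.

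Of 14 matrix proteins that these enzymes cut, those upregulated numbered 6 (CT2A), 5 (GL261), 7 (005) and 6 (Mut3), which became 6, 6, 9 and 9 in the fit without 005 replicate 3. Col3a1, a fibrillar collagen, was upregulated in all 4 (6.37, 4.85, 2.22 and 3.04), as was Vcan, the proteoglycan versican (4.84, 2.15, 4.37 and 5.93). Acan, aggrecan, was upregulated in Mut3 (6.61), and Col4a1, a type IV collagen of basement membranes, rose by 4.99 in CT2A, 2.83 in 005 and 2.02 in Mut3. In CT2A 1 gene of the list, Bcan, was downregulated (-3.75). Of 12 tested AP-1 and ETS factors, which bind upstream of several Mmp genes, 3 were upregulated in each of CT2A, GL261 and 005 and 1 in Mut3, and 2, 1 and 2 were downregulated in CT2A (Jund, -1.61, and Fos, -1.34), GL261 (Ets2, -1.06) and Mut3 (Ets2, -2.18, and Junb, -1.73). Fosl1, an AP-1 subunit, was at 0.610 ± 0.539 CPM in naïve brain (SD, n = 3). It was upregulated in CT2A, GL261 and 005, with fitted log2 fold changes of 6.89, 3.35 and 5.37. The naïve mean lay under the level of 3 counts in those libraries (0.612 to 0.811 CPM). The size of these fold changes therefore depends on the small count the model adds. In Mut3 Fosl1 was at 1.06 ± 0.634 CPM and was not DE (0.71, adjusted p = 0.605). Elk3, an ETS factor, rose by 3.25 in CT2A, 2.18 in GL261 and 3.52 in 005. Ets1 was upregulated in all 4 tumors (2.47, 2.82, 2.02 and 2.60). The median log2 fold change in the 4 tumors was 0.91, 1.20, 2.00 and 1.34 for the matrix proteins and 0.01, -0.30, 0.25 and -0.42 for the factors.

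Over the 15 samples, the gene whose log level was most like that of Mmp2 was Hadha, a mitochondrial enzyme of fatty acid oxidation (r = 0.95, Spearman's rho 0.97). Nearest to Timp1 were the predicted gene Gm42427 (r = 0.96) and Zbp1, a sensor of nucleic acids (r = 0.95). Nearest to Timp4 were Tom1l1 (r = 0.93), Dok7 (0.92) and Gpr37l1, a receptor of astrocytes (0.91). For Mmp12 it was Baz1a (0.92), for Mmp14 Eif4e3 (0.90), for Timp2 Xpo6 (0.92) and for Timp3 Rflnb (0.90). For Mmp3, Mmp9 and Mmp13 the highest r was 0.86 (Ntpcr), 0.90 (Rrh) and 0.86 (Dnttip1). The points share libraries and groups, and the values are descriptions.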

How the data were processed

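RNA sequencing of naïve brain and of 4 intracranial tumor models was analysed, with 15 libraries in 5 groups of 3 mice taken from the submitters' labels. Per the labels and the study's methods, the authors aligned reads with STAR 2.4.2a to the GENCODE mouse genome. Their processing notes also name Salmon, DESeq2 1.18.1 and mm10, without roles, and neither the annotation release nor the use of strand in counting is given in the sources used here. The deposited expected counts (estimated counts per gene, not whole) were rounded to whole numbers. The deposited TPM values, which the authors scaled by gene length and by each sample's total, served for shares within a sample and for alternative tests.

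Genes with low counts were removed with filterByExpr, which left 17481 of 46679 genes, and 1 edgeR 4.0.16 quasi-likelihood model (R 4.3.3) with TMM normalisation and a mean per group was fitted to all 15 libraries. P-values were adjusted by Benjamini-Hochberg over all genes tested, and DE meant an adjusted p under 0.05 with a log2 fold change of at least 1 in size. Errors of fold changes are standard errors of the fit, and other errors are SD. All tests were two-sided. Alternatives were DESeq2 1.42.0, library size scaling, no filter, at least 10 counts in every sample, a replicate block, limma 3.58.1 on log2(TPM + 1) and log2(TPM + 0.1), a fit of only the samples compared, no threshold on the fold, and leaving out each library. Repeats without 005 replicate 3 for the gene lists, and the TPM shares of the peptidases, were chosen after seeing the data. The fit was tested on simulated counts for CT2A against naïve brain with 16898 genes. It called 36.7% of genes changed 4-fold, 63.3% of those changed 8-fold and 77.6% of those changed 16-fold, but 0 of 48 changed 2-fold. A 2-fold change lies on the fold minimum itself, so that last value is in part set by the rule. The count of DE members leaves out small changes.

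The 10 members and the gene lists were chosen with earlier results of these data known. All members were named. From each list, genes could be named if they were among the 4 DE genes with the largest fold change in some comparison against naïve brain, and part of these are given, with Plau, Plaur, Reck, Bsg, Lcn2, Cd44 and the genes holding Timp1, Timp3 and Timp4. Genes named because a count was small, such as Bcan, were chosen after their values were seen. So were the endothelial, pericyte and fibroblast markers named for Mut3. Likeness was Pearson's r of log2 CPM over 15 samples, among genes with a mean log2 CPM of at least 3. Positions are those of GENCODE M21 (GRCm38), in which 46201 of the gene identifiers were found, and promoter windows are RefSeq GRCm38.p6. A share of counts carries no interval where replicates give an SD, and counting intervals are exact at 95%. Columns of the deposited tables held sample values only. A few alleles of the lines and 1 listed gene are not reported here.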

Additional observations from a re-analysis of the deposited data

Results flagged for a closer look

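In 11 instances a member's effect against naïve brain differed between a pair of tumor lines by the direct test of the difference (edgeR, adjusted p under 0.05 and at least 1 on the log2 scale). Mmp2 accounted for 4 of them. Its log2 difference was -2.25 for CT2A against GL261, -4.32 for CT2A against Mut3, -2.07 for GL261 against Mut3 and -3.30 for 005 against Mut3. Timp1 differed by 2.59 for GL261 against Mut3 and by 2.44 for 005 against Mut3. Timp2 differed by -1.30 for GL261 against 005 and by 1.44 for 005 against Mut3. Timp4 differed by -1.81 for CT2A against Mut3 and by -1.35 for 005 against Mut3, and Mmp9 by 2.36 for 005 against Mut3. Samples standing apart within a group were not tested for, since every group had 3 mice.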

How the results depend on the processing

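Of the 31 calls of members over the 12 comparisons, 10 held in every setting run. Over the 40 member fold changes against naïve brain and the 13 called between lines, 996 values over all settings kept their direction and side of the threshold, 155 lost the call, 21 gained it and 29 changed sign. The cause was not tested for any of these. Requiring 10 counts in every sample, which left fewer members tested, gave 3 DE members in CT2A and 3 in 005, against 5 in each. limma on log2(TPM + 1) gave 3 in CT2A, 2 in 005 and 2 in Mut3 (5, 5 and 4 in the edgeR fit), and between lines 0 for CT2A against GL261, 1 for CT2A against Mut3 and 3 for 005 against Mut3 (1, 2 and 5). With a pseudocount of 0.1 it gave 2 in 005, 2 in Mut3, 1 for CT2A against Mut3 and 2 for GL261 against 005 (5, 4, 2 and 1). DESeq2 gave 2 for CT2A against GL261, 4 for CT2A against Mut3 and 2 for GL261 against 005. Fitting only the samples compared gave 0 in 005, 4 for CT2A against GL261, 4 for CT2A against Mut3, 0 for GL261 against 005, 2 for 005 against Mut3 and 0 for CT2A and GL261 against 005 and Mut3.

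Samples that share a replicate number are different mice and did not deviate together (r from -0.33 to 0.26 over 30 pairs, 1 of them over 0.1). With the replicate block, 2 members were DE in 005 and 0 for CT2A and GL261 against 005 and Mut3, and Mmp9 in GL261 was at 0.00. By CPM in place of TPM, the share of Timp1 among the inhibitors was 14.7% for naïve brain, 44.1% for CT2A, 74.7% for GL261, 53.2% for 005 and 30.7% for Mut3, a scale that does not correct for length. On the TPM scales (pseudocount 1, then 0.1), where the median of all genes was itself -0.45 to -0.77 with the latter, values fell below 0 for Mmp2 in CT2A (-0.02, -0.04), Mmp3 in CT2A (-0.53, -0.71), GL261 (-0.14, -0.19) and 005 (-0.39, -0.52), Timp2 in 005 (-0.30, -0.32), Timp1 in Mut3 (-0.03, -0.03) and Timp4 in Mut3 (-0.12, -0.17). Relative to that median, a reading added after seeing the data, only Mmp3 in 005 of these stayed below 0 (-0.07). With library size scaling Mmp3 in 005 was at 0.00.

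Leaving out 1 library at a time, the number of DE members ran from 3 to 6 in CT2A, 2 to 6 in GL261, 2 to 6 in 005 and 2 to 4 in Mut3. Between lines it ran from 0 to 2 for CT2A against GL261, 0 to 1 for CT2A against 005, 1 to 4 for CT2A against Mut3, 0 to 2 for GL261 against 005, 1 to 2 for GL261 against Mut3 and 3 to 5 for 005 against Mut3. It was 1 to 2 for GL261 and 005 against CT2A and Mut3, 0 to 1 for CT2A and GL261 against 005 and Mut3, and 6 to 8 among the 5 groups. Signs turned for Mmp9 in GL261 (-0.22 to 0.25) and Mut3 (-0.43 to 0.10), Mmp3 in 005 (-0.05 to 0.27) and Mut3 (-0.21 to 0.07), Timp3 in Mut3 (-0.56 to 0.27) and Timp4 in GL261 (-0.60 to 0.03), none of which was DE. Timp1 shares ran from 49.1 to 54.9% (naïve brain), 83.9 to 86.2% (CT2A), 94.9 to 95.5% (GL261), 78.2 to 91.9% (005) and 73.6 to 79.8% (Mut3). Depth limits Mmp13 and Mmp9, which had 0 to 2 and 3 to 9 counts in naïve brain.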

Other observations

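Oligodendrocyte markers, genes of myelin, summed to 1721 to 4300 CPM in naïve brain and 311 to 497 CPM in Mut3, where 6 of 8 were downregulated, and 3 of 8 were downregulated in CT2A (223 to 1258 CPM). In the fit without 005 replicate 3 those downregulated were 8 of 8 (CT2A), 1 (GL261), 6 (005) and 7 (Mut3). Astrocyte markers summed to 1514 to 1936 CPM in naïve brain, and 5 of 8 were downregulated in CT2A (332 to 624 CPM), while in GL261, at 1166 to 1418 CPM, 1 of 8 was upregulated (Gfap, 2.56, adjusted p = 0.0086, edgeR). Of 8 endothelial markers, only Kdr, the main VEGF receptor, was upregulated in Mut3 (1.47, adjusted p = 0.0417, edgeR), where 17.9% of all genes were. Pecam1 was at -0.98 there (adjusted p = 0.00751), short of the fold minimum. Tek (-1.41), Egfl7 (-0.74), Flt1 (-0.52), Cdh5 (-0.13), Cldn5 (0.13) and Esam (0.27) were not DE in Mut3. The endothelial sum was 174 to 259 CPM in naïve brain, 117 to 128 in CT2A, 184 to 240 in GL261, 143 to 254 in 005 and 120 to 134 in Mut3. Of 6 choroid plexus markers, 1 was downregulated in CT2A (Prlr) and 1 in Mut3 (Clic6). Without 005 replicate 3, 2 were downregulated in Mut3 and 3 of 8 astrocyte markers in 005. The part of these cells in the values of the peptidases and inhibitors was not tested.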
